A study of Homo sapiens with 12 samples.

Results

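A pair of dCas9 fusions that both lack a working acetyltransferase were set against each other with guide RNAs for IL1RN: dCas9-VP64, which carries an activation domain, and dCas9-p300 D1399Y, which carries an inactivated enzyme. The 6 libraries used were chosen by the transfected gene named in their labels, 3 for each protein, out of 12 libraries in 4 groups. Of 24394 features in the files (transcripts summed per gene), 14128 had enough reads to be tested. The 2 groups not tested here received dCas9 alone or dCas9 fused to the active p300 core.

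All cells were HEK293T, a line derived from human embryonic kidney and holding the large T antigen of SV40. The cells of the dCas9-VP64 group and those of the dCas9-p300 D1399Y group shared the same treatment apart from the fusion: they were transfected, with a lipid reagent, with plasmid for the fusion protein and with plasmids for guide RNAs to 4 sites at IL1RN. The fusions were thus expressed from plasmid, the labels mention no selection of the transfected cells, and all 12 libraries of the series received the guide RNAs. The labels do not say whether the 3 replicates of a group were separate transfections, and each p-value then reflects library-to-library spread that may be technical.

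dCas9 is a Cas9 protein whose cutting sites are mutated, so that it binds DNA where a guide RNA pairs with it and leaves the strands intact. VP64 is built from copies of a short activation segment of the herpes simplex protein VP16; such segments recruit Mediator and the general transcription factors, and through them RNA polymerase. p300, the product of EP300, is a histone acetyltransferase and coactivator that marks active promoters and enhancers; the D1399Y change in its catalytic core abolishes the enzyme activity while the core stays fused to dCas9. The product of IL1RN is an antagonist that occupies the interleukin 1 receptor without signalling. The comparison thus asks what a recruited activation domain did that a bound but catalytically inactive fusion of the p300 core did not.

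IL1RN lies on chromosome 2 and has more than 1 transcription start, and the 4 transcripts counted in the files begin at these starts. In GENCODE v29, on GRCh38, NM_173843 begins at position 113117893, NM_173841 and NM_000577 at 113117897, and NM_173842 at 113127561, all on the plus strand. The stretches before the upstream and the downstream start are printed because the guide RNAs were directed to IL1RN; the sources used here give neither the guide sequences nor their exact sites. They come from the RefSeq promoter table of GRCh38.p14, 5′ to 3′ on the plus strand, while the counts rest on hg19. The first ends just before the earliest of the upstream starts. The second ends at 113127488, just before a RefSeq start at 113127489 and short of the NM_173842 start at 113127561. A further downstream stretch, 113127348 to 113127560, ends just before the NM_173842 start and is not printed. It held the motif NGG, described next, 32 times on the plus strand and 4 times on the minus strand. Capitals mark the GG of each NGG, the motif that Streptococcus pyogenes Cas9 needs next to a target.
IL1RN upstream start, chr2:113117721-113117892: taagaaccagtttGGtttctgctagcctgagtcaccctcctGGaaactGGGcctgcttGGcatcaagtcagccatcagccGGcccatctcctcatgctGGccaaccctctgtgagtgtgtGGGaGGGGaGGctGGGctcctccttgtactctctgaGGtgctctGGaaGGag
IL1RN downstream start, chr2:113127239-113127488: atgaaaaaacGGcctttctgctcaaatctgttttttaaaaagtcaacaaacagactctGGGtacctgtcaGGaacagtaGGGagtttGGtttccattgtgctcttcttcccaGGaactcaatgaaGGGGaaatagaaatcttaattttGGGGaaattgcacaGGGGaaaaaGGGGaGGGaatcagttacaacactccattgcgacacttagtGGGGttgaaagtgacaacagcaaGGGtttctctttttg
Counting overlapping matches, the 172 bases before the upstream start held NGG 18 times on the plus strand and 16 times on the minus strand. The 250 bases shown for the downstream start held it 27 times on the plus strand and 6 times on the minus strand. NGG was found on either strand in 99.99% of the 35116 promoter windows of the table at either length, so its presence is no feature of IL1RN in particular.

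The libraries were of like depth. Total counts ran from 3873764 to 4104479 with dCas9-VP64 and from 3700113 to 3762962 with dCas9-p300 D1399Y. The HEK293T marker list (neurofilament, vimentin, keratin and renal transcription factor genes) had 10 of 10 members tested, and its summed level ran from 549 to 688 CPM (counts scaled to a common library size) with dCas9-VP64 and from 536 to 651 CPM with dCas9-p300 D1399Y. Of the wider renal and neuronal list 27 of 32 members were tested. PAX8 had 1 count over the 6 libraries, and KRT19 had 0 or 1 count in each. Summed levels of fibroblast markers were at most 26.2 CPM with dCas9-VP64 and 27.6 CPM with D1399Y, and those of endothelial, blood, keratinocyte and hepatocyte markers at most 14.4 CPM with dCas9-VP64 and 12.6 CPM with D1399Y; COL1A2, THY1, CD3E, HBB, KRT5, KRT14, KRT1 and TTR had 0 counts in all 6 libraries. D1399Y replicate 2 stood apart from the other 5 libraries. Its correlations of log2 CPM across genes with them were 0.973 to 0.976, and its median absolute deviation from the 6-library mean was 0.2005 on the log2 scale, against 0.1002 to 0.1375 in the others. IL1RN, EP300, the length trend and some of the other estimates are given below with and without it. Of the 83 other genes chosen for the text, 28 had a log2 fold change that moved by over 1.5 times without it, 26 of them nearer 0, and 0 changed sign. D1399Y replicate 3 has a label that begins with CV42, and those of the other 5 libraries begin with CV41; the labels do not say what these names stand for.

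IL1RN was the 1 gene called higher with dCas9-VP64, at about 3 times its level with dCas9-p300 D1399Y. Its counts were 95, 76 and 123 in the dCas9-VP64 libraries, against 24, 26 and 35 in the D1399Y libraries. As CPM scaled by TMM normalization, these were 23.2, 19.2 and 31.0 with dCas9-VP64 and 6.43, 7.44 and 9.20 with D1399Y. Every dCas9-VP64 library lay above every D1399Y library.

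The IL1RN means were 24.5 ± 6.01 CPM with dCas9-VP64 and 7.69 ± 1.40 CPM with dCas9-p300 D1399Y (SD, n = 3 each). The fold change was 3.17 (95% interval 2.20 to 4.55; log2 1.66 ± 0.25, standard error), and it passed the threshold of 0.05 narrowly (adjusted p = 0.0485, edgeR's quasi-likelihood test with Benjamini-Hochberg adjustment over 14128 genes). By p IL1RN ranked 2, after EP300. The adjustment divides by rank, so the IL1RN call depends on EP300 being among the genes tested. Genes called higher were 0.00708% of those tested, which is IL1RN alone. In 1 fit of all 12 libraries IL1RN stood at log2 1.66 and did not pass (adjusted p = 0.119), and without D1399Y replicate 2 it stood at log2 1.64 and did not pass (adjusted p = 0.445). The log2 fold change of IL1RN stayed between 1.46 and 1.82 when any 1 library was left out, and the call was kept in 1 of those 6 fits, the fit without D1399Y replicate 3 (adjusted p = 0.0236), which is also the fit of the CV41 libraries alone.

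The files list 4 IL1RN transcripts, whose counts may share reads, so they do not show separate changes at the 2 starts. NM_173842, the transcript of the downstream start, had 24, 20 and 33 counts with dCas9-VP64 and 6, 4 and 8 with D1399Y (log2 1.96 ± 0.37). The 3 transcripts of the upstream start had 15 to 31 counts in the dCas9-VP64 libraries and 5 to 11 in the D1399Y libraries, at log2 1.51 ± 0.38 for NM_173841, 1.59 ± 0.34 for NM_000577 and 1.57 ± 0.35 for NM_173843. No dCas9-VP64 library overlapped a D1399Y library for any of the 4 transcripts, which may be the same reads counted again. Among all tested genes, 3.23% had every dCas9-VP64 library above every D1399Y library. The share over all transcripts was not counted.

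None of the 4 IL1RN transcripts passed the test over 24678 transcripts (adjusted p = 0.434 for NM_173842 and 0.9999 for each of the others, edgeR). Over all 12 libraries, their shares of the IL1RN count varied less between libraries than separate reads would give. The spread was 0.368 of that expected of separate reads for IL1RN, and the median was 0.635 over 1842 genes with 3 or 4 transcripts. A gene's summed count may therefore hold a read more than once. With the most abundant transcript alone standing for each gene, IL1RN was at log2 1.59 and did not pass (adjusted p = 0.9996, edgeR), while EP300 did.

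**Figure D1:**
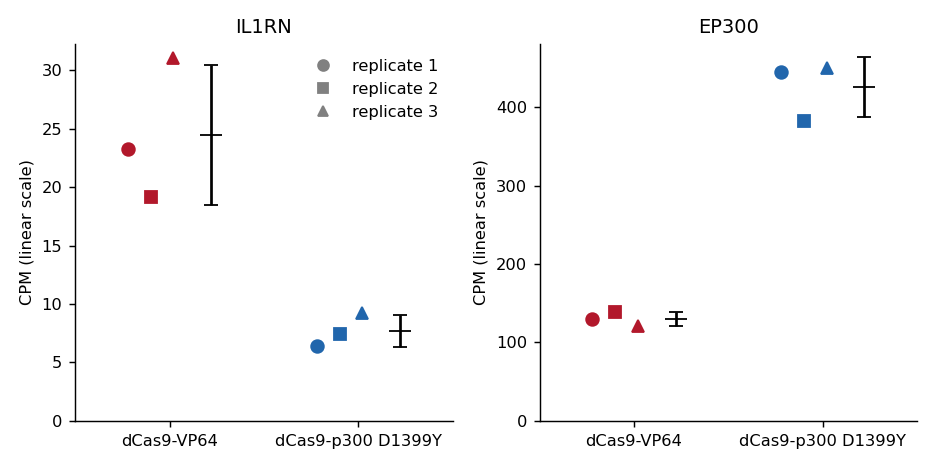
CPM of IL1RN (left) and EP300 (right) in each dCas9-VP64 and dCas9-p300 D1399Y library, on linear axes from 0; symbols are replicates, and the bar beside them is the mean ± SD of 3 libraries. IL1RN is at 19.2 CPM or more in dCas9-VP64 libraries and at 9.20 CPM or less in D1399Y libraries, and EP300 is at 138 CPM or less in dCas9-VP64 libraries and at 382 CPM or more in D1399Y libraries.

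EP300, whose catalytic core the D1399Y plasmid carries, was the 1 gene called lower with dCas9-VP64 than with dCas9-p300 D1399Y. Its counts were 534, 548 and 481 with dCas9-VP64 and 1658, 1335 and 1714 with D1399Y. These were 131, 138 and 121 CPM with dCas9-VP64 against 444, 382 and 450 CPM with D1399Y, with no overlap. The level was 0.305 of that with D1399Y (95% interval 0.259 to 0.360; log2 -1.71 ± 0.11; adjusted p = 2.67e-06, edgeR), and genes called lower were 0.00708% of those tested.

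Reads from the plasmid-borne core and from the cell's EP300 gene cannot be told apart in these counts, and the share of each was not tested. EP300 has 1 transcript in the files, NM_001429. On the scale of all 12 libraries EP300 averaged 131 CPM with dCas9-VP64, 431 CPM with D1399Y, 392 CPM with the active core and 107 CPM with dCas9 alone, where the 3 libraries ranged from 51.9 to 146 CPM. Both groups whose plasmid holds the core were thus above 339 CPM in every library, and both groups without it were below 146 CPM in every library. With all 12 libraries in 1 fit the EP300 call was lost (log2 -1.71, adjusted p = 0.119, edgeR), with a standard error of 0.27. Without D1399Y replicate 2 EP300 stood at log2 -1.78 and kept its call (adjusted p = 1.41e-06, edgeR).

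Apart from IL1RN and EP300, no gene passed the test between the 2 fusions. The called genes were 2 of 14128, or 0.0142%, and the lowest adjusted p among the rest was 0.999 (edgeR). The median log2 fold change over all genes was -0.005, with 6899 genes above 0 and 7229 below, and the median standard error was 0.17. An unadjusted p under 0.05 was reached by 256 genes, 146 higher and 110 lower, where 706.4 are 5% of those tested. Every dCas9-VP64 library lay above every D1399Y library in 457 genes (3.23%) and below in 384 (2.72%). A change of more than 2-fold was estimated for 10 genes, 6 higher and 4 lower, and 7 of them had a mean under 5 CPM, where a level rests on few reads.

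**Figure D2:**
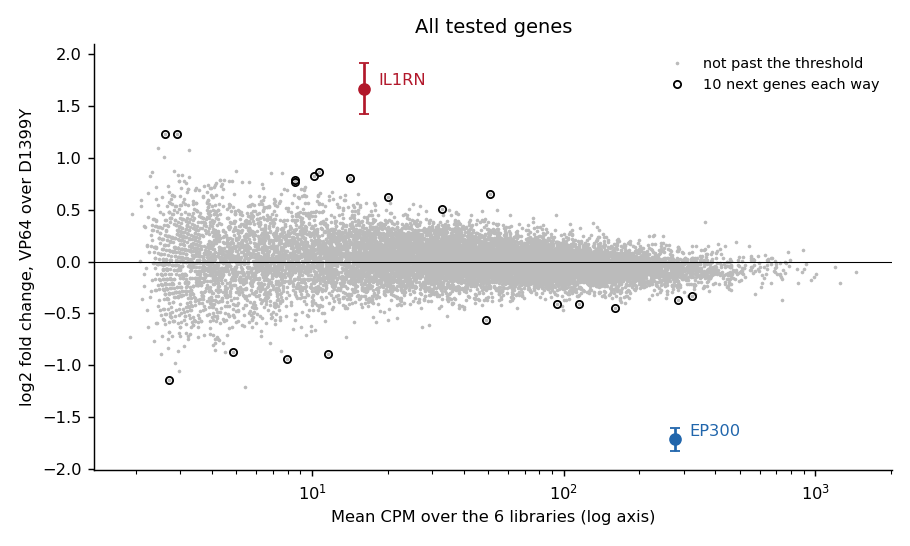
log2 fold change of dCas9-VP64 over dCas9-p300 D1399Y for each of 14128 tested genes against its mean CPM over the 6 libraries (log axis). IL1RN and EP300 (bars, standard error) stand clear of the cloud, and the 20 genes next in order of p (open circles) lie at its edge.

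The 10 genes that came next on the higher side did not pass the test, at an adjusted p of 0.999 each (edgeR). FDXR, the mitochondrial ferredoxin reductase and a p53 target, had the smallest p of them. It was at 68.9, 63.3 and 54.2 CPM with dCas9-VP64 and 44.5, 31.2 and 42.8 CPM with D1399Y (log2 0.65 ± 0.16). TP53I3, a quinone oxidoreductase induced by p53, was at 14.2, 15.6 and 11.6 CPM with dCas9-VP64 and 6.43, 5.15 and 11.04 CPM with D1399Y (log2 0.86 ± 0.28). Neither gene overlapped between the groups, although D1399Y replicate 3 came close to the dCas9-VP64 libraries for TP53I3.

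The cytokine gene LIF was at 10.3, 10.3 and 11.8 CPM with dCas9-VP64 and 6.97, 5.15 and 6.57 CPM with D1399Y (log2 0.79 ± 0.25). DGLUCY, the D-glutamate cyclase of mitochondria, was at 27.4, 23.7 and 21.7 CPM with dCas9-VP64 and 15.0, 17.2 and 15.2 CPM with D1399Y (log2 0.62 ± 0.19). ZFYVE27, the endoplasmic reticulum protein protrudin, stood at log2 0.51 ± 0.17, and RASSF7, of the Ras association domain family, at 0.77 ± 0.25. The adhesion gene NECTIN4 stood at log2 0.82 ± 0.27. PRKAR1B, a regulatory subunit of protein kinase A, stood at 0.81 ± 0.27 and was the 1 gene of these 10 whose groups overlapped, through dCas9-VP64 replicate 1.

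FSIP1, named for the fibrous sheath of sperm, and C10orf143 had the largest estimates of the 10 and the fewest reads. FSIP1 was at 3.67, 5.30 and 3.28 CPM with dCas9-VP64 and 1.34, 1.72 and 2.10 CPM with D1399Y (log2 1.23 ± 0.37). C10orf143 had 13, 12 and 19 counts with dCas9-VP64 and 5, 6 and 6 with D1399Y (log2 1.23 ± 0.38). In the groups outside the comparison C10orf143 averaged 3.801 CPM with the active core and 3.48 CPM with dCas9, beside 3.71 CPM with dCas9-VP64 and 1.56 CPM with D1399Y, so D1399Y was the group set apart, below all 9 other libraries. The gene was picked by small p, and the share of all tested genes with D1399Y so set apart was not counted.

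On the lower side, the 10 next genes likewise did not pass, at an adjusted p of 0.999 each (edgeR). SYNE2, a nesprin that links the nuclear envelope to the cytoskeleton, was at 129, 133 and 144 CPM with dCas9-VP64 and 164, 208 and 181 CPM with D1399Y (log2 -0.45 ± 0.12). FN1, fibronectin of the extracellular matrix, was at 246, 238 and 260 CPM with dCas9-VP64 and 344, 335 and 283 CPM with D1399Y (log2 -0.37 ± 0.11). KMT2A, a histone methyltransferase of active promoters, was at 293, 286 and 279 CPM with dCas9-VP64 and 362, 386 and 330 CPM with D1399Y (log2 -0.33 ± 0.10). None of the 3 overlapped between the groups, and each estimate is a change of less than 1.5-fold.

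ARFGEF3, of the family of ARF exchange factors, and TRIQK both stood at log2 -0.41 ± 0.13. SYCP2, a protein of the synaptonemal complex, stood at -0.89 ± 0.28, and PKDREJ, a polycystin family receptor, at -1.14 ± 0.37, with levels of 1.22 to 2.27 CPM with dCas9-VP64 and 3.22 to 4.21 CPM with D1399Y. NEXMIF, a neurite extension and migration factor, stood at -0.94 ± 0.31; it was at 15.5 CPM in D1399Y replicate 2 and at 8.04 and 7.88 CPM in the other 2 D1399Y libraries. PDE5A, the phosphodiesterase of cyclic GMP, stood at -0.57 ± 0.19 and overlapped between the groups.

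CHRNA4, a subunit of neuronal nicotinic acetylcholine receptors, was at 3.42, 3.28 and 3.53 CPM with dCas9-VP64 and 5.89, 6.58 and 6.31 CPM with D1399Y (log2 -0.87 ± 0.28). CHRNA4 was the 1 gene of these 20 whose dCas9-VP64 libraries lay apart from all 9 others. The 20 were picked by small p in this comparison, and the share of all tested genes that lie so was not counted. On the scale of 12 libraries it averaged 3.45 CPM with dCas9-VP64, 6.34 CPM with D1399Y, 7.56 CPM with the active core and 5.81 CPM with dCas9. These levels rest on 13 or 14 counts in each dCas9-VP64 library and 22 to 24 in each D1399Y library.

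For the other 18 genes neither group lay apart from all 9 other libraries. dCas9 libraries spanned the range of both groups in 4 of the 20 genes (DGLUCY, TP53I3, PRKAR1B and FN1), with TP53I3 running from 3.68 to 25.9 CPM over the 3 dCas9 libraries. D1399Y replicate 2 was the library of its group farthest from dCas9-VP64 in 5 of the 10 genes on the higher side and in 8 of the 10 on the lower side. Without it the 10 higher genes ran from 0.41 to 1.31 on the log2 scale and the 10 lower genes from -1.14 to -0.27, all 10 of the lower ones nearer 0; NEXMIF stood at -0.55 ± 0.29 and FDXR at 0.51 ± 0.14.

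**Figure D3:**
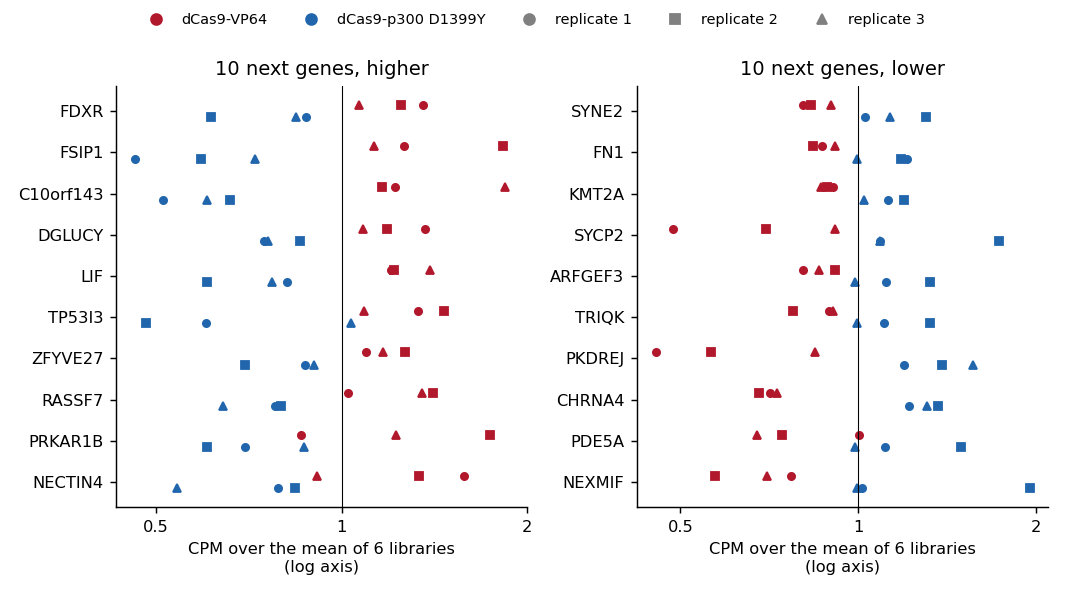
CPM of each library divided by the gene's mean over the 6 libraries (log axis), for the 10 genes next in order of p on the higher side (left) and the lower side (right); red marks dCas9-VP64, blue dCas9-p300 D1399Y, and symbols are replicates. The groups are separate in 18 of the 20 genes, which were picked by small p, against 3.23% (higher) and 2.72% (lower) of all genes, and D1399Y replicate 2 (blue squares) is the D1399Y library farthest from dCas9-VP64 in 5 of the higher and 8 of the lower genes.

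The 2 sides of the 20 genes differed in median transcript length. Those on the higher side had transcripts of 1595 to 3502 bases (median 2310) and those on the lower side of 2216 to 20246 bases (median 7849), against a median of 3063 over the 12122 genes of known length with a mean count of at least 20. Over those genes the median log2 fold change was 0.10 under 1 kb (580 genes), 0.06 at 1 to 2 kb, 0.02 at 2 to 3 kb, -0.02 at 3 to 4 kb, -0.06 at 4 to 6 kb and -0.11 over 6 kb (1717 genes). Without D1399Y replicate 2 the medians lay between -0.04 and 0.01. Those values are differences of mean log2 CPM on the 6-library scaling, with no new fit. The median log2 ratio of D1399Y replicate 2 to the 6-library mean ran from -0.22 under 1 kb to 0.19 over 6 kb, the widest run of any library. The part of this trend in any single gene was not tested. With an offset for length in each library, EP300 kept its call (log2 -1.60, adjusted p = 3.89e-05, edgeR) and IL1RN, at 1580 bases, did not (log2 1.59, adjusted p = 0.0759).

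**Figure D4:**
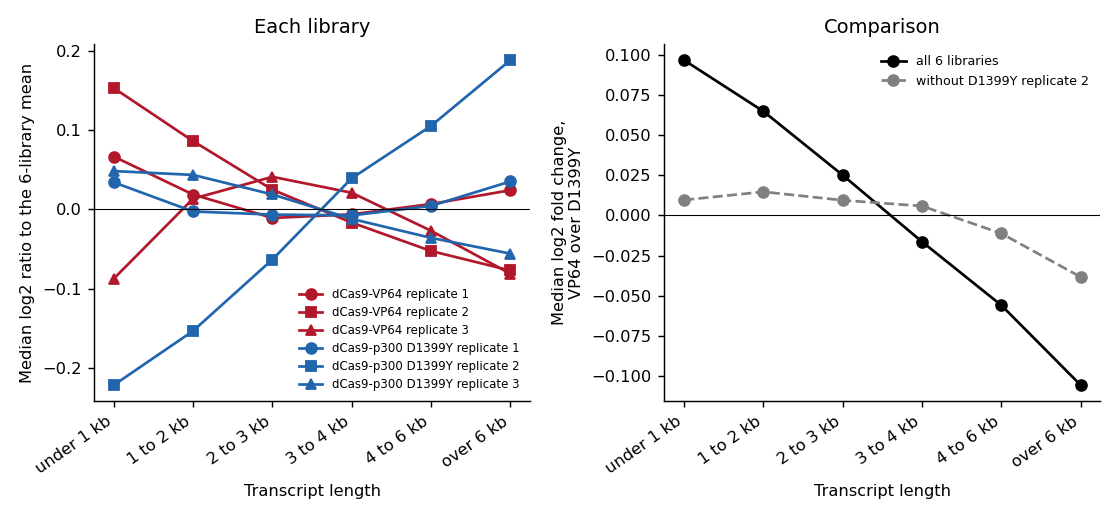
Left, median log2 ratio of each library to the 6-library mean in 6 classes of transcript length (red, dCas9-VP64; blue, dCas9-p300 D1399Y); right, median log2 fold change of dCas9-VP64 over D1399Y in the same classes with all 6 libraries and without D1399Y replicate 2. D1399Y replicate 2 rises from -0.22 to 0.19 across the classes, and without it the medians stay between -0.04 and 0.01. The values without it are differences of mean log2 CPM, with no new fit.

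The genes around IL1RN did not differ detectably. Of the 15 protein-coding genes on either side in GRCh38 order, 15 in all were tested, 8 above 0 and 7 below, and 0 were called; their smallest unadjusted p was 0.104 (edgeR). PSD4, an exchange factor for ARF proteins and the next gene on one side, was at 6.11, 5.30 and 8.32 CPM with dCas9-VP64 and 3.75, 6.01 and 8.67 CPM with D1399Y (log2 0.09 ± 0.32). Its groups overlapped, and the 95% interval reached 0.79 on the log2 scale, which is below the lower bound of IL1RN at 1.14. ZNG1B, a zinc chaperone 3 genes away, had the highest value at 0.32 ± 0.19, and SLC35F5, a solute carrier, the lowest at -0.15 ± 0.17.

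On the other side IL1RN adjoins the interleukin 1 cytokine cluster, whose genes had almost no reads in either group. IL1F10, IL36RN, IL36B, IL36A, IL36G, IL37 and IL1B had 0 counts in all 6 libraries, which allows up to 3 counts each over the 6. IL1A, which encodes an agonist that the IL1RN product opposes, had 1 count with dCas9-VP64 and 1 with D1399Y. A difference in these genes was not detectable at this depth. Beyond them CKAP2L, a spindle protein, stood at -0.14 ± 0.14, the phosphate carrier SLC20A1 at 0.02 ± 0.11 and CHCHD5, of mitochondria, at 0.25 ± 0.23.

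The interleukin 1 receptor pathway, which the IL1RN product blocks, showed no called gene. Of its 24 tested members 12 were above 0 and 12 below, with a median of -0.01 beside -0.005 over all genes. The members of smallest p were parts of the NF-kB route: IKBKG, the regulatory subunit of the IkB kinase, at 0.35 ± 0.20, its catalytic subunit IKBKB at 0.21 ± 0.13 and the inhibitor NFKBIB at 0.37 ± 0.21. Their groups overlapped. IKBKG, for one, was at 24.2, 28.8 and 30.0 CPM with dCas9-VP64 and 27.1, 18.9 and 18.9 CPM with D1399Y.

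Among genes of chromatin and the transcription machinery, EP300 was the 1 called. Histone acetyltransferases had 8 of 18 members above 0 (median -0.01); KAT6B stood at -0.21 ± 0.11 with no overlap between the groups, and KAT2A stood at 0.31 ± 0.18. Deacetylases had 13 of 18 members above 0 (median 0.07), with HDAC10 at 0.56 ± 0.29, HDAC4 at 0.20 ± 0.17 and SIRT2 at 0.14 ± 0.13. The bromodomain genes, whose proteins read acetylated histones, had 9 of 21 members above 0 (median -0.02), with BRD9 at 0.25 ± 0.16, BRD2 at 0.15 ± 0.11 and PBRM1 at -0.14 ± 0.12. Mediator and the general transcription factors, the partners of VP16-type domains, had 26 of 43 members above 0 (median 0.04), with MED7 at 0.38 ± 0.20, MED27 at 0.24 ± 0.17 and GTF2A1 at -0.31 ± 0.16 (-0.05 without D1399Y replicate 2). Among the genes of the histones themselves 5 of 14 were above 0 (median -0.03), and H1-2, a linker histone, stood at -0.56 ± 0.30.

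Known targets of p53 had the highest median among the lists of 10 or more tested genes, at 0.11 with 17 of 26 members above 0, and 0 were called. Large T antigen, which this line carries, binds and inactivates p53. In 6 of the 26 every dCas9-VP64 library lay above every D1399Y library, where 3.23% of all genes did so. These were FDXR, TP53I3, PHLDA3 (0.65 ± 0.26), an inhibitor of AKT signalling, and, named after their values were seen, BTG2 (0.39 ± 0.16), DDB2 (0.19 ± 0.14) and AEN (0.16 ± 0.11). PHLDA3 was at 21.8, 19.2 and 15.1 CPM with dCas9-VP64 and 13.7, 7.16 and 14.7 CPM with D1399Y, so replicate 3 of the 2 groups nearly met. Members of a list may vary together, so the 6 are not separate observations. Over the 3 dCas9 libraries, on the scale of 12 libraries, FDXR ran from 37.1 to 117 CPM and PHLDA3 from 8.61 to 30.0 CPM. The list's median log2 ratio to the 6-library mean was 0.18, 0.03 and 0.005 in the dCas9-VP64 libraries and 0.005, -0.19 and -0.05 in the D1399Y libraries. The median of the list was 0.08 without D1399Y replicate 2 and 0.09 with length offsets, and it ran from 0.05 to 0.14 over the fits that leave out 1 library.

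The nuclear genes of the mitochondrion had medians slightly above 0 that moved with single libraries. Respiratory chain genes had 64 of 76 members above 0 (median 0.09), with NDUFV3 at 0.27 ± 0.16 and NDUFB2 at 0.33 ± 0.22, both subunits of complex I. Mitochondrial ribosomal protein genes had 61 of 75 members above 0 (median 0.07), with MRPL11 at 0.27 ± 0.14, MRPL55 at 0.30 ± 0.18 and MRPL42 at -0.22 ± 0.12 (-0.07 without D1399Y replicate 2). No member of either list was called. The respiratory chain median was 0.005 without D1399Y replicate 2, 0.04 without dCas9-VP64 replicate 2 and 0.18 without dCas9-VP64 replicate 3. The mitochondrial ribosomal median was 0.02 without D1399Y replicate 2, 0.02 without dCas9-VP64 replicate 2 and 0.14 without dCas9-VP64 replicate 3. With length offsets the 2 medians were 0.03 and 0.009. In D1399Y replicate 2 the median log2 ratio to the 6-library mean was -0.20 for the respiratory chain and -0.24 for the mitochondrial ribosome.

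Cytosolic ribosomal protein genes had a median below 0, at -0.05, with 11 of 65 above 0 and 0 called. In 6 of them every dCas9-VP64 library lay below every D1399Y library, where 2.72% of all genes did so. RPL7 was at 172, 175 and 168 CPM with dCas9-VP64 and 187, 190 and 185 CPM with D1399Y (log2 -0.12 ± 0.10), and RPL15 and RPL31 stood at -0.12 ± 0.09 and -0.11 ± 0.10. These shifts in CPM are under 10%. As raw counts the groups overlapped for RPL7, RPL15 and RPL31, with RPL7 at 704, 694 and 668 with dCas9-VP64 and 697, 663 and 704 with D1399Y. The 3 dCas9 libraries, of 3633590, 4228316 and 2442960 total counts, held 692, 692 and 688 counts of RPL7. How far the CPM of this list follow library depth was not tested, and its members may vary together. Without dCas9-VP64 replicate 3 the median was 0.01, so its sign rests on that library, and with length offsets it was -0.14. ACTB, a gene of very high expression in most cells, took 0.0204% to 0.0214% of the counts with dCas9-VP64 and 0.0180% to 0.0215% with D1399Y; the sources used here do not say whether reads of abundant transcripts were limited before counting.

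Stress and signalling genes showed no call either. The unfolded protein and stress response had 6 of 31 members above 0 (median -0.07), although the 2 members of smallest p were higher: SDF2L1, of the endoplasmic reticulum chaperone machinery, at 0.62 ± 0.27 and PPP1R15A, which directs dephosphorylation of eIF2 alpha, at 0.40 ± 0.18. The stress sensor ATF6 stood at -0.27 ± 0.15, and at -0.05 without D1399Y replicate 2. The median of this list was -0.001 without dCas9-VP64 replicate 1 and -0.13 without dCas9-VP64 replicate 2. For immediate early genes, 7 of 26 were above 0 (median -0.09), with KLF10 at -0.15 ± 0.11, FOSL2 at -0.31 ± 0.32 and JUN at -0.10 ± 0.11; the median was 0.03 without dCas9-VP64 replicate 1 and 0.01 without D1399Y replicate 3. Heat shock genes had 9 of 18 members above 0 (median 0.0001), with HSF1, their main regulator, at 0.24 ± 0.15, DNAJB4 at -0.22 ± 0.16 and HSPE1 at 0.18 ± 0.20.

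Interferon-stimulated genes, which transfected nucleic acid can induce, had 7 of 20 members above 0 (median -0.04). ISG15 was at 2.44, 5.05 and 4.03 CPM with dCas9-VP64 and 2.14, 1.72 and 3.94 CPM with D1399Y (log2 0.54 ± 0.40), and the groups overlapped. OAS3 stood at -0.34 ± 0.30 and IFIT1 at -0.29 ± 0.27. A further 14 members of this list had too few reads to be tested.

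No metabolic or growth gene on the lists was called. Cholesterol and fatty acid synthesis genes had 13 of 29 members above 0 (median -0.04); INSIG1, a brake on sterol synthesis, was at 188, 150 and 233 CPM with dCas9-VP64 and 222, 265 and 249 CPM with D1399Y (log2 -0.37 ± 0.14), while the desaturase gene SCD stood at -0.22 ± 0.11 and PMVK, of the mevalonate route, at 0.39 ± 0.18. Hypoxia and glycolysis genes had 11 of 34 members above 0 (median -0.03). P4HA1, a collagen hydroxylase, stood at -0.23 ± 0.11, ERO1A at -0.20 ± 0.14 (-0.03 without D1399Y replicate 2) and PGK1 at -0.11 ± 0.11. Genes of replication and mitosis had 20 of 44 members above 0 (median -0.001), with TOP2A at -0.15 ± 0.10, POLE at -0.17 ± 0.13 and TTK at -0.14 ± 0.11. The noncoding list had 12 of 22 members above 0 (median 0.007), with the snoRNA host SNHG17 at 0.47 ± 0.19.

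No lineage marker was called. Renal and neuronal genes had 14 of 27 members above 0 (median 0.002), with the neuronal MAP2 at -0.78 ± 0.38, ADRB1 at -0.73 ± 0.53 and PAX2 at 0.64 ± 0.49. PAX2, a renal transcription factor, varied within both groups, at 2.44, 5.80 and 7.06 CPM with dCas9-VP64 and 1.61, 1.72 and 6.31 CPM with D1399Y. Markers of other cell types had 5 of 26 members tested, with LYZ at 0.77 ± 0.35 and COL3A1 at -0.28 ± 0.28. Over the 21 lists 645 genes were tested, EP300 was the 1 gene called, and the medians ran from -0.09 to 0.13, the highest being that of the 5 markers of other cell types.

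**Figure D5:**
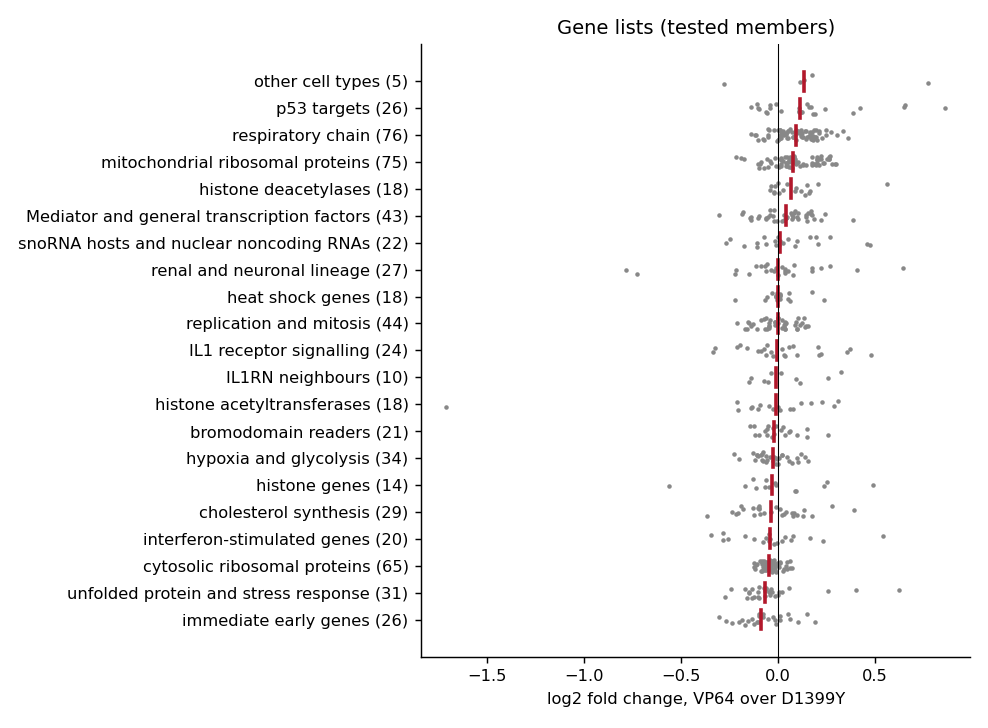
log2 fold change of dCas9-VP64 over dCas9-p300 D1399Y for each tested member (points) of the 21 gene lists, with the number tested in brackets and the median as a red bar. Medians lie between -0.09 and 0.13, and the point at -1.71 among the acetyltransferases is EP300.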

How the data were processed

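Polyadenylated RNA of transfected HEK293T cells was sequenced. The authors deposited 1 table of raw counts per library for 40709 RefSeq transcripts; per the submitters' processing notes the build was hg19 and the tools were R 3.1.2, DESeq2 1.6.2, Bowtie2, SAMtools and CASAVA. The sources used here do not give how shared reads of isoforms, strand and duplicate reads were treated. No 2 libraries held identical counts.

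Transcripts were named through RefSeq (39324) and GENCODE (517) tables of GRCh38, and 868 without a name (1.07% of counts) were kept under their identifier. Counts were summed per gene. The 6 libraries were fitted alone with edgeR 4.0.16 in R 4.3.3: TMM factors, filterByExpr (minimum count 10, minimum total 15) and the two-sided quasi-likelihood test, with Benjamini-Hochberg adjustment over all genes tested and a threshold of 0.05. CPM are edgeR's counts per TMM-scaled library size; errors beside log2 values are standard errors.

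Genes named are IL1RN, EP300, the genes past the threshold, the 10 of next smallest p each way, at most 3 members of each of 21 lists by p, and the tested genes within 15 protein-coding genes of IL1RN; exceptions are marked, and 1 gene that the rule selects is not reported here. The comparison, lists and rule were chosen with earlier results of these data known. Lists have no test. NT5DC4, BRD1 and CECR2 were not analysed here. Alternatives were DESeq2 1.42.0, limma-voom (limma 3.58.1), upper-quartile and RLE factors, a robust fit, no filter, a filter of 1 CPM in 3 libraries, all 12 libraries in 1 fit, the replicate number as a block, the CV41 libraries alone, single transcripts and leaving out each library; length offsets and the most abundant transcript per gene were added after the data were seen. Python 3.11.15, pandas 2.3.3 and matplotlib 3.10.9 were also used. Limits set on a count of 0 cover counting error alone, as PCR reads with no molecular identifier are not independent.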

Additional observations from a re-analysis of the deposited data

Results flagged for a closer look

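In libraries outside the comparison, IL1RN was higher with the active p300 core than with either fusion compared here, at a mean of 83.6 CPM on the scale of all 12 libraries, against 6.74 CPM with dCas9 alone, and all 3 core libraries lay above all 3 dCas9 libraries. EP300 averaged 392 CPM with the active core and 107 CPM with dCas9 alone, again without overlap. The groups of 3 are too small for a test of single outlying libraries.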

How the results depend on the processing

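The direction of IL1RN and of EP300 was kept under every alternative run. The count of called genes was 2 in the reported fit and 1, EP300, with RLE factors, upper-quartile factors, limma-voom, length offsets and the most abundant transcript per gene; it was 0 with all 12 libraries in 1 fit. Leaving out 1 library gave 1 to 2 calls. IL1RN lost its call at log2 1.66 with RLE factors, 1.69 with upper-quartile factors, 1.64 with limma-voom, 1.66 with all 12 libraries, 1.59 with length offsets, 1.59 with its most abundant transcript, and 1.51, 1.96, 1.59 and 1.57 for its transcripts NM_173841, NM_173842, NM_000577 and NM_173843; leaving out 1 library gave 1.46 to 1.82. Over all alternatives the adjusted p of IL1RN ran from 9.24e-05 (DESeq2) to 0.9999 (single transcripts). The single transcripts hold fewer reads each; the cause was not tested for the others. EP300 lost its call with all 12 libraries (log2 -1.71). The filter of 1 CPM in 3 libraries, planned as stricter, kept more genes than the reported one and gave 2 calls.

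The number of genes with an unadjusted p under 0.05 ran from 97 (all 12 libraries) to 707 (without D1399Y replicate 3), beside 256, so it is no measure of how many genes changed; it was 144 with DESeq2, 393 without a filter, 101 without dCas9-VP64 replicate 2 and 408 without dCas9-VP64 replicate 3. PSD4 turned to -0.11 without dCas9-VP64 replicate 3 and to -0.16 without D1399Y replicate 1, and was at most 0.44 with any 1 library left out. Of 1491 values of named genes under alternatives, 1489 kept both their direction and their side of the threshold, and 0 gained a call. Many of these genes were picked by small p in the same libraries, and the fits share libraries, so this count is no test of the estimates. In all, 14 of 378 list medians moved by more than the spread between replicates. By that measure the respiratory chain median, 0.09 in the reported fit and 0.005 without D1399Y replicate 2, did not move.

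Same-numbered libraries of the 2 groups deviated together in replicates 1 and 3 (correlations 0.285 and 0.301) and not in replicate 2 (0.034). The labels give the same replicate numbers in both groups but do not say what a number shares. The reported fit does not use these numbers. With the replicate block the count was 2, with IL1RN at log2 1.66 (adjusted p = 0.0209) and EP300 at -1.71 (adjusted p = 2.05e-05, edgeR), and 403 genes had an unadjusted p under 0.05. Every library of replicates 1 and 3 correlated best with its own number in the other group, and those of replicate 2 did not. Depths of at most 4104479 counts a library limit what can be seen in genes under 5 CPM.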
